A study of Mus musculus with 27 samples.

Results

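Expression of 8 marker genes of the enteric nervous system was followed in 27 libraries of mouse colon RNA. They were Elavl4 and Uchl1, which mark nerve cells in general, Ret, the receptor that guides and maintains enteric neurons, Nos1, Vip and Tac1, which make transmitters, and S100b and Sox10, which mark glia. The 8 genes were chosen by name, and all 8 were among the 39971 genes of the deposited table and among the 22753 that passed the filter on low counts. All mice were wild-type BALB/c. NC (n = 6) were control mice given saline only. In the other 4 groups the carcinogen azoxymethane, followed by the colon irritant dextran sulfate sodium (together AOM/DSS), had led to neoplasia of the inflamed colon. CAC (n = 5) then received saline. CAC_F (n = 5) received FOLFOX, the combination of folinic acid, fluorouracil and oxaliplatin, by injection, with saline by gavage. CAC_FP (n = 5) received FOLFOX by injection and a probiotic complex by gavage. CAC_FPL (n = 6) received both of these and, by gavage, the antidiarrhoeal opioid loperamide, which slows the gut. Tissue was collected one week into chemotherapy. It was colon in NC and a segment bearing tumors in the other 4 groups, so tissue source and AOM/DSS cannot be told apart. The labels do not say that each library came from a separate mouse, so p-values measure the spread between these libraries, which may be partly technical.

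The enteric nervous system lies in the gut wall as a myenteric plexus between the muscle layers and a submucosal plexus below the mucosa, with glia wrapped around the neurons in both. Nitric oxide from Nos1 and vasoactive intestinal peptide from Vip relax smooth muscle and, for Vip, drive secretion, whereas substance P from Tac1 contracts muscle and promotes inflammation. RET is the signalling receptor for GDNF family ligands. In whole tissue, fewer cells of a type and less RNA per cell cannot be told apart.

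For 6 of the 8 genes a promoter sequence was matched by symbol in RefSeq (GRCm38.p6). Those of Vip and Tac1 are shown as the relaxing and the contracting peptide, and that of S100b because its level followed muscle genes from library to library. Each run gives the 250 bases before the annotated start, 5′ to 3′. Capitals mark matches to TGACG, the core of the cyclic AMP response element, and to TATAAA, each searched on both strands.
Vip, chr10:5638968-5639217, plus strand: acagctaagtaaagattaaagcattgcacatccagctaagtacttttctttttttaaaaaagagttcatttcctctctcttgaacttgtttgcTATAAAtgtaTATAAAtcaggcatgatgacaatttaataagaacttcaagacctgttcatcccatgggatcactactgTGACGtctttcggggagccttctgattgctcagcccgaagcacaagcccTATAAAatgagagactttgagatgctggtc
Tac1, chr6:7554811-7555060, plus strand: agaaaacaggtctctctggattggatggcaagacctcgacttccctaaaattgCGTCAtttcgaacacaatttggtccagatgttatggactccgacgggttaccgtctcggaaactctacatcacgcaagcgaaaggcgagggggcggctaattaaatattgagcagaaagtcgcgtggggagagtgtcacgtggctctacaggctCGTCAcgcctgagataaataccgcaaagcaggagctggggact
S100b, chr10:76253586-76253835, plus strand: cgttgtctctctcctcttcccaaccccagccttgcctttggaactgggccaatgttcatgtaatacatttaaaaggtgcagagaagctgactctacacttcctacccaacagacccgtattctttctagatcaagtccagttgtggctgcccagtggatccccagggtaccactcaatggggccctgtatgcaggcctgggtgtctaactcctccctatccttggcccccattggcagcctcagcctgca
Vip held 1 TGACG match, beginning 79 bases before the start, and 3 TATAAA matches, the nearest 30 bases before it. Tac1 held 2 TGACG matches, both on the opposite strand, and no TATAAA. S100b held neither, and no CArG box, the site bound by serum response factor in muscle genes, searched on both strands. Among 32851 windows of the same length, 17.8% held TGACG, 12.4% TATAAA and 1.47% a CArG box. These matches describe the letters in the window and do not show binding.

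Libraries held 56687812 to 79709845 counts, and the members 20 to 3935 counts each, the lowest for S100b. Levels are given as CPM, counts scaled to the size of each library. A gene was called where its adjusted p was below 0.05 (edgeR quasi-likelihood test, Benjamini-Hochberg adjustment over 22753 genes). Changes are log2 fold changes ± standard error (SE). All 16 genes of a pan-neuronal list and all 16 of a glial list were detected in every group. CAC replicate 2 and CAC_FPL replicate 3 stood apart in position along the gut, with the distal gene Hoxb13 at 97.2 and 287 CPM against 0 to 5.98 CPM in the other 25 libraries. CAC_FPL replicate 3 was the lowest of all 27 libraries in 4 members. Without these libraries the same number of members was called in each main comparison.

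In CAC against NC none of the 8 members was called, where 0.0044% of tested genes were. In CAC_F against CAC 2 of 8 were called, Ret higher and S100b lower, where 27.5% of tested genes were called, 13.9% as higher and 13.6% as lower. The members' share of 25% was therefore near the background. CAC_FP against CAC_F and CAC_FPL against CAC_FP gave no called member, where 0% of tested genes were called in either. Groups were free of overlap for 1 member, Ret, in CAC_F against CAC, beside 15.8% of tested genes. In the other 3 comparisons the groups overlapped for all 8 members. There, 0.879% (CAC against NC), 2.06% (CAC_FP against CAC_F) and 0.321% (CAC_FPL against CAC_FP) of tested genes were free of overlap. At an unadjusted p below 0.05 there were 0, 2, 2 and 0 members in CAC against NC, CAC_F against CAC, CAC_FP against CAC_F and CAC_FPL against CAC_FP. DESeq2 called Tac1 in CAC_FP against CAC_F. The median log2 fold change of the 8 was 0.26, 0.06, -0.38 and -0.06, beside 0.03, -0.02, -0.01 and 0.01 over all tested genes.

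**Figure D1:**
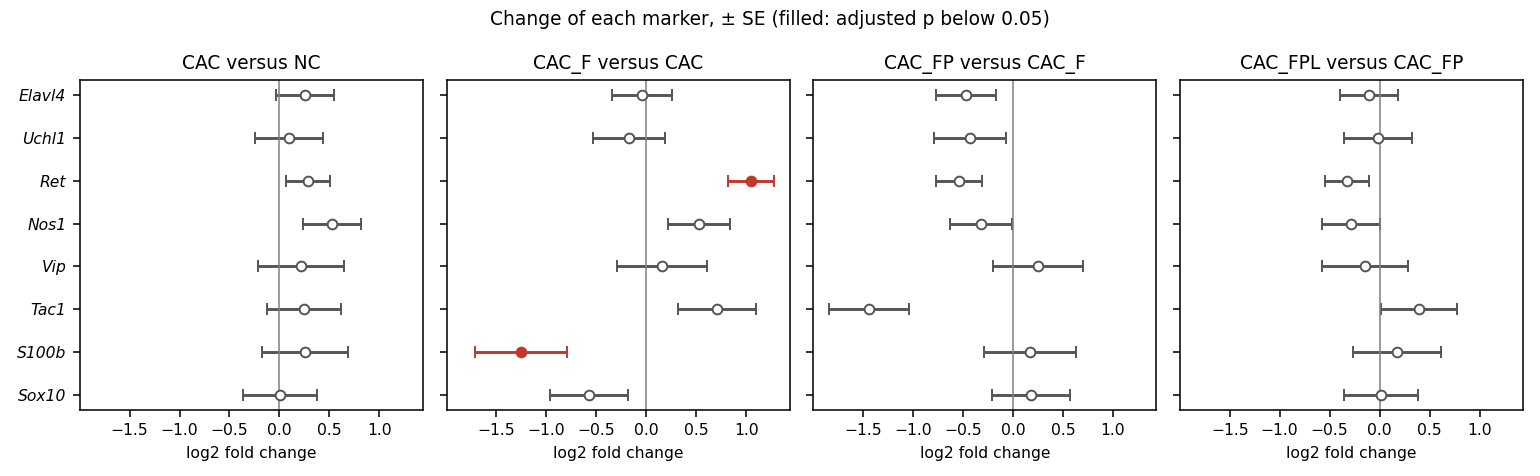
Log2 fold change of each of the 8 markers in the 4 main comparisons, with bars of ± SE from the edgeR fit (filled red: adjusted p below 0.05, open: not called). Ret at 1.05 and S100b at -1.25 in CAC_F versus CAC are the called values, and Tac1 at -1.44 in CAC_FP versus CAC_F lies farthest from 0 without a call.

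Levels between genes were compared per length, on the authors' FPKM scale. Uchl1 and Vip were the highest 2 members in every group, and Elavl4 the lowest. In NC Uchl1 was at 5.66 ± 2.27 FPKM (SD, n = 6), Vip at 5.29 ± 2.40 and Tac1 at 2.32 ± 0.869. S100b at 1.33 ± 0.468, Sox10 at 1.16 ± 0.369 and Ret at 1.12 ± 0.347 followed, and Nos1 at 0.54 ± 0.138 and Elavl4 at 0.498 ± 0.108 came last. Each gene in this order overlapped the next in range. In CAC_F Ret had moved to the fourth place, at 3.12 ± 0.766 FPKM (n = 5), and its range no longer overlapped that of Nos1, the next gene, at 1.23 ± 0.319. S100b was then the lowest but one, at 0.724 ± 0.122. In CAC_FP Vip at 8.96 ± 2.08 FPKM (n = 5) lay above Uchl1 at 4.35 ± 1.48 with no overlap.

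Elavl4, an RNA-binding protein found in almost all neurons, kept a level near 3 CPM in NC, CAC and CAC_F. It is listed on the minus strand of chromosome 4 from 110060934 to 110209106, in the coordinates of the deposited table. These differ from GRCm38 for all 8 members, and no source used here names their build. Elavl4 was at 2.18, 3.03 and 3.96 CPM (lowest, median and highest) in NC and at 3.37, 2.93, 2.60, 5.78 and 3.72 CPM in CAC replicates 1 to 5. In CAC_F it was at 4.57, 3.86, 2.48, 3.18 and 3.81 CPM, in CAC_FP at 2.77, 3.24, 1.47, 2.20 and 3.19 CPM, and in CAC_FPL at 1.06, 2.27 and 3.7 CPM. All groups overlapped, and the 3 lowest libraries belonged to CAC_FP and CAC_FPL. The log2 fold change was 0.26 ± 0.29 in CAC against NC, -0.04 ± 0.30 in CAC_F against CAC (95% interval -0.63 to 0.55), -0.47 ± 0.30 in CAC_FP against CAC_F and -0.11 ± 0.29 in CAC_FPL against CAC_FP.

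Uchl1, the neuronal deubiquitinase also known as PGP9.5, was spread more widely within groups (chromosome 5, plus strand, 66833434 to 66844577). It ran from 6.14 to 17.6 CPM in NC, with a median of 10.0, from 6.83 to 17.9 CPM in CAC, from 6.84 to 13.9 CPM in CAC_F, from 3.36 to 9.24 CPM in CAC_FP and from 2.40 to 11.4 CPM in CAC_FPL. The groups overlapped in every comparison. Its log2 fold change was -0.17 ± 0.36 in CAC_F against CAC and -0.43 ± 0.36 in CAC_FP against CAC_F. Uchl1 and Elavl4 rose and fell together from library to library. After group means were removed, Pearson's r was 0.93 (p = 1e-05, the smallest the 100000 permutations within groups can give; adjusted p = 9e-05 over 9 relations) and Spearman's coefficient 0.92 (n = 27). Without the 2 libraries farthest from the median in Elavl4, r was 0.89.

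The wider pan-neuronal list, which includes Snap25 of the synaptic release machinery, the cytoskeletal genes Tubb3 and Prph and the neurofilament Nefl, was read in the same way. None of its 16 genes was called in any of the 4 main comparisons. Its median log2 fold change was 0.21, -0.11, -0.41 and 0, in the order of comparisons above. With the mean of the smooth muscle genes as a covariate, the median in CAC_F against CAC turned to 0.47, with 1 gene higher. That covariate did not overlap between these groups, at 6.95 to 7.69 in CAC_F and 7.94 to 9.98 in CAC (mean log2 CPM). Here and below, values of CAC_F against CAC with this covariate thus refer to a muscle level that the groups do not share. That fit called 4783 of 22753 genes, 2463 as higher and 2320 as lower. In CAC_FP against CAC_F all 16 were negative, led by Snap25 at -0.67 ± 0.28, from 10.4 ± 2.60 CPM to 6.53 ± 1.82 CPM (SD, n = 5 each; unadjusted p = 0.0223, adjusted p = 0.297, edgeR). Their levels share libraries and nerve tissue, so the 16 are not independent.

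Ret was higher in CAC_F than in any group without FOLFOX (chromosome 6, minus strand, 118128706 to 118174679). It was at 3.91, 9.47 and 11.0 CPM (lowest, median and highest) in NC and at 8.99, 9.76, 7.74, 13.7 and 12.7 CPM in CAC. In CAC_F it was at 21.4, 29.5, 16.3, 20.6 and 22.0 CPM. Every CAC_F library lay above every CAC and NC library. The log2 fold change against CAC was 1.05 ± 0.23 (2.08-fold, 22.0 ± 4.79 against 10.6 ± 2.52 CPM, SD, n = 5 each; adjusted p = 0.00182, edgeR). Groups did not overlap for 15.8% of tested genes in that comparison. Leaving out each library in turn gave 0.93 to 1.16.

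With the probiotic complex Ret was at 15.8, 14.2, 19.5, 9.91 and 16.0 CPM, and with loperamide as well at 9.69, 11.3 and 17.1 CPM (lowest, median and highest). CAC_FP lay between CAC_F and CAC in its mean and overlapped both, and 5 of the 6 CAC_FPL libraries lay below every CAC_F library. The change in CAC_FP against CAC_F was -0.54 ± 0.23 (unadjusted p = 0.0269, adjusted p = 0.312, edgeR) and in CAC_FPL against CAC_FP -0.33 ± 0.22 (adjusted p = 0.887, edgeR). Against CAC_F directly, Ret in CAC_FPL fell by 0.88 ± 0.22 on the log2 scale (adjusted p = 0.0238, edgeR), the only member called there, where 6.27% of tested genes were called, 3.78% as higher and 2.49% as lower, and where 2.39% did not overlap. That call was lost, at adjusted p = 0.0532 to 0.0889, without CAC_F replicate 1 or 2 or CAC_FPL replicate 1, 2 or 3.

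Read against Elavl4 in the same library, Ret was also higher in CAC_F than in CAC. The ratio of Ret to Elavl4 in CPM was 2.67, 3.33, 2.97, 2.37 and 3.42 in CAC and 4.68, 7.65, 6.57, 6.47 and 5.79 in CAC_F. The groups did not overlap, and the log2 ratio differed by 1.07 (exact permutation test, two-sided, p = 0.00794, the smallest possible with 5 against 5; adjusted p = 0.0794 over 40 ratio tests). It thus missed the threshold after adjustment. A single ratio at that smallest p could not pass over 40 tests, however far apart the groups. The ratio was 4.38 to 13.3 in CAC_FP and 2.97 to 9.17 in CAC_FPL. Its log2 value differed by -0.05 in CAC_FP against CAC_F and by -0.12 in CAC_FPL against CAC_FP (exact permutation p = 0.921 and 0.779). Ligands of RET and its co-receptors did not move as one in CAC_F against CAC. Gdnf was at -0.27 ± 0.31, Gfra1 at -0.54 ± 0.40 and Gfra2 at -0.62 ± 0.32, none called. Artn, a GDNF family ligand, rose by 1.22 ± 0.35 (adjusted p = 0.0106, edgeR). Ednrb, the endothelin receptor of migrating neural crest cells, rose by 1.07 ± 0.40, from 23.0 ± 9.24 to 48.4 ± 13.8 CPM (adjusted p = 0.0447, edgeR). Of the 10 genes for enteric neuron fate and trophic receptors, Ret and Ednrb were thus higher and none was lower, with a median of -0.01. That was 20%, beside 27.5% of all tested genes called. With the smooth muscle covariate 3 were higher, with a median of 0.68. Without CAC replicate 2 and CAC_FPL replicate 3, 2 were higher and 1 lower, with a median of -0.18. The fit without these libraries called 7016 of 23013 genes.

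Some markers of macrophages and enteroendocrine cells were also higher in CAC_F. Of 7 macrophage genes 4 were called higher (57.1%), where 27.5% of all tested genes were called, 13.9% as higher. Their summed level was 1020 to 1920 CPM in CAC_F against 463 to 1030 CPM in CAC. The defining gene Adgre1 was at 19.5 to 34.8 CPM against 22.9 to 28 CPM. Of 12 enteroendocrine genes 2 were higher, a share of 16.7% that was near the 13.9% of all tested genes. Their summed level was 412 to 1140 CPM against 252 to 509 CPM, and Chga was at 0.65 ± 0.42 (adjusted p = 0.271, edgeR). Hoxa13, a gene of distal gut position, was at 11.5 to 27.6 CPM in 4 CAC_F libraries. The remaining one, replicate 1, held 1.6 CPM, and all libraries of the other groups held 0.553 to 7.62 CPM except NC replicate 4 (38.2 CPM), CAC replicate 2 (37.3 CPM) and CAC_FPL replicate 3 (56.0 CPM). Of 6 tested genes of stratified squamous epithelium 3 were called higher in CAC_F against CAC (50%) and 0 lower. Of 8 fibroblast genes 1 was higher and 1 lower, and Pdgfra was at 179 to 335 CPM in CAC_F against 76.4 to 150 CPM in CAC. The part of these genes in the level of Ret was not tested.

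**Figure D2:**
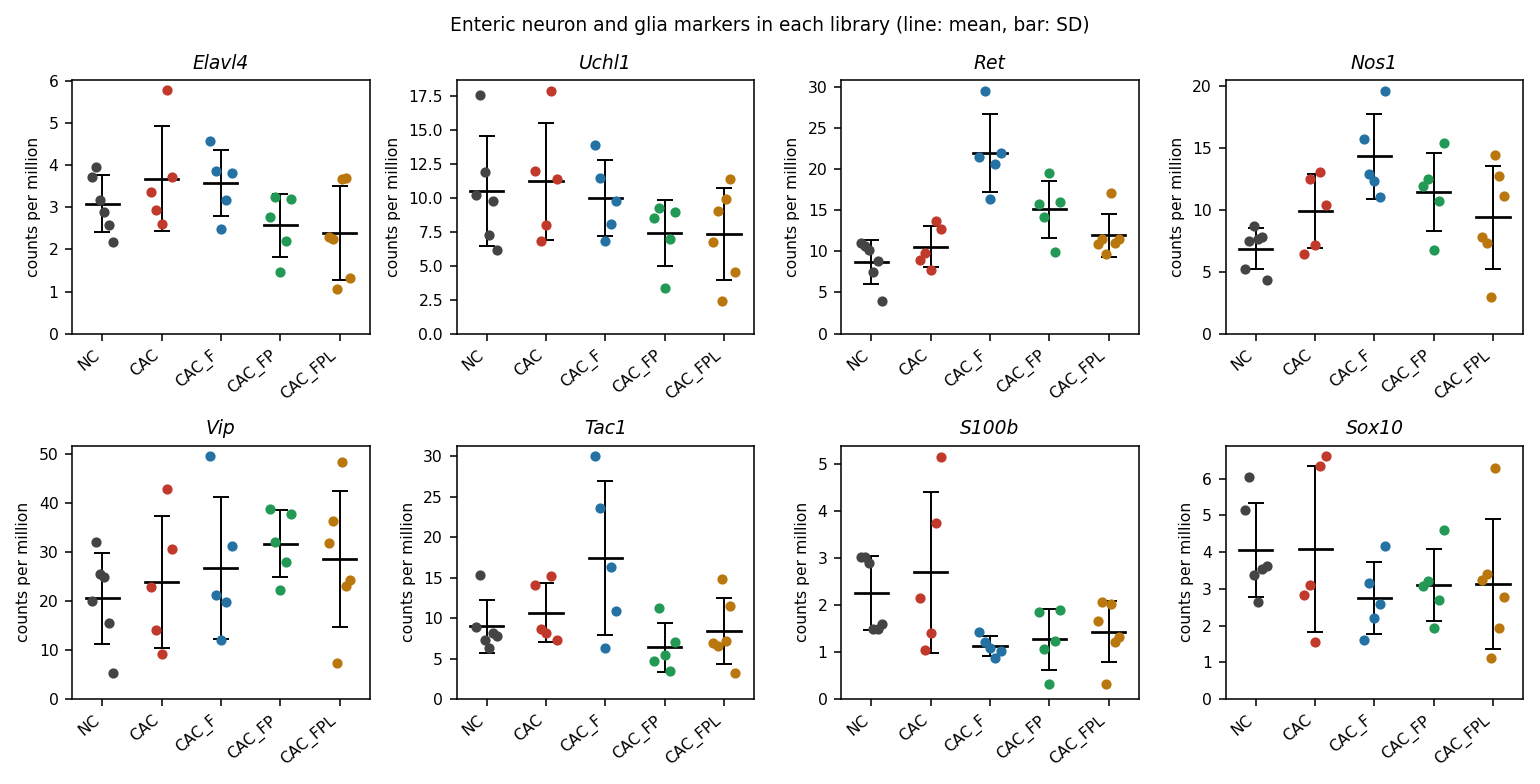
Level of each of the 8 markers in CPM by group, with 1 point per library, a line at the mean and a bar of ± SD (n = 6 in NC and CAC_FPL, 5 in the others). All CAC_F points of Ret, at 16.3 to 29.5, lie above all NC and CAC points, while Elavl4 and Uchl1 overlap in every group.

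Nos1, the neuronal nitric oxide synthase (chromosome 5, plus strand, 117919097 to 118092429), was at 4.36, 7.58 and 8.65 CPM (lowest, median and highest) in NC and at 6.40, 12.5, 7.16, 13.0 and 10.4 CPM in CAC. In CAC_F it was at 15.7, 12.9, 12.3, 11.0 and 19.6 CPM. CAC lay between the others and overlapped both, and every CAC_F library was above every NC library. The change was 0.53 ± 0.29 in CAC against NC and 0.53 ± 0.31 in CAC_F against CAC (adjusted p = 0.787 and 0.208, edgeR). In CAC_F against NC, which spans both steps and shares the CAC_F libraries, Nos1 rose by 1.06 ± 0.29 (adjusted p = 0.00682, edgeR). There 3 of 8 members were called, all higher, where 34.3% of tested genes were called, 18.1% as higher and 16.2% as lower. Ret was at 1.34 ± 0.22 (adjusted p = 8.76e-05) and Tac1 at 0.96 ± 0.37 (adjusted p = 0.0499, both edgeR). Groups did not overlap for Ret, Nos1 and S100b in that comparison, or for 20.8% of tested genes. With the probiotic complex Nos1 was at 6.76 to 15.4 CPM and with loperamide at 2.95 to 14.4 CPM, the lowest in CAC_FPL replicate 3, and neither step was called.

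Vip differed little between groups beside its spread (chromosome 10, plus strand, 5589218 to 5597617). It was at 5.32, 22.5 and 32.0 CPM (lowest, median and highest) in NC, at 22.9, 14.1, 9.09, 42.8 and 30.6 CPM in CAC and at 49.5, 21.2, 12.0, 19.9 and 31.2 CPM in CAC_F. It was at 38.8, 32.0, 22.2, 27.9 and 37.8 CPM in CAC_FP and at 7.44, 28 and 48.4 CPM in CAC_FPL. Each group overlapped every other. The changes were 0.22 ± 0.43, 0.16 ± 0.45, 0.25 ± 0.45 and -0.15 ± 0.43 in the 4 main comparisons. The 95% interval ran from -0.72 to 1.05 in CAC_F against CAC and from -0.64 to 1.13 in CAC_FP against CAC_F.

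Tac1 was uneven within CAC_F (chromosome 6, plus strand, 7554879 to 7562977). It was at 14.1, 8.61, 8.20, 15.2 and 7.29 CPM in CAC and at 30.0, 23.6, 6.36, 16.3 and 10.9 CPM in CAC_F, with the high values in replicates 1, 2 and 4. In CAC_FP it was at 4.75, 11.3, 5.48, 3.50 and 7.03 CPM. CAC_F overlapped both neighbours, and 3 CAC_FP libraries lay below every CAC_F library. The change was 0.71 ± 0.39 in CAC_F against CAC (adjusted p = 0.19) and -1.44 ± 0.40 in CAC_FP against CAC_F (unadjusted p = 0.00134, adjusted p = 0.158, edgeR). The latter passed without CAC_F replicate 3, at -1.65 (adjusted p = 0.0322, edgeR), and with DESeq2, at -1.45 (adjusted p = 0.0298). The higher level in CAC_F against NC held its call in 3 of 11 fits that left out 1 library, with changes of 0.67 to 1.17. NC ran from 6.33 to 15.4 CPM with a median of 7.97, and CAC_FPL from 3.24 to 14.8 CPM with a median of 7.06. The highest CAC_FPL value was that of replicate 3, the library lowest in 4 other members.

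Tac1 is also made by enterochromaffin cells of the epithelium, whose serotonin enzyme Tph1 was at 42.7 to 85.9 CPM in CAC_F, 15.3 to 70.6 CPM in CAC and 7.25 to 72.0 CPM in CAC_FP. Tph1 was at -0.50 ± 0.44 in CAC_FP against CAC_F, not called, and 11 of 12 enteroendocrine genes were negative there. Their part in the level of Tac1 was not tested. Penk, which encodes the enkephalins, also had a lower mean in CAC_FP, at -0.94 ± 0.33 (unadjusted p = 0.00893, adjusted p = 0.233, edgeR). The ratio of Vip to Elavl4 was higher in CAC_FP than in CAC_F by 0.88 on the log2 scale and that of Tac1 lower by 0.85. Exact permutation p was 0.0159 and 0.0635, and adjusted p 0.0794 and 0.282 over the 40 ratio tests, so neither passed. The ratio of Sox10 to Elavl4 was also higher there, by 0.7 (exact permutation p = 0.0159, adjusted p = 0.0794). Elavl4 itself was at -0.47 ± 0.30 in that comparison and Vip at 0.25 ± 0.45.

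The wider list of transmitter and neuropeptide genes had 0 higher and 3 lower of 20 in CAC_F against CAC, with a median of 0.06. That share of 15% was near the 13.6% of all tested genes called lower, where 27.5% were called in either direction. With the smooth muscle mean as a covariate 2 were higher and 0 lower, with a median of 0.58, and without CAC replicate 2 and CAC_FPL replicate 3 the median was -0.01, with 4 lower. In the fit of all libraries without the covariate Nmu fell by 1.71 ± 0.44 on the log2 scale (adjusted p = 0.00506), Sst by 1.57 ± 0.41 (adjusted p = 0.00617) and Calcb by 1.16 ± 0.39 (adjusted p = 0.028, all edgeR). Sst, somatostatin, is made by endocrine D cells as well as neurons, and was at 31.6 ± 16.1 CPM in CAC and 10.6 ± 3.76 CPM in CAC_F. Calcb, a calcitonin gene-related peptide of sensory-type neurons, was at 3.96 ± 1.97 and 1.77 ± 0.501 CPM. Chat, which makes acetylcholine, was at -0.59 ± 0.44 against CAC and lower against NC, by -1.38 ± 0.43 (adjusted p = 0.0136, edgeR). Tuft cells also express Chat. Of 7 tested tuft cell genes 4 were lower and 1 higher in CAC_F against NC (71.4%), beside 34.3% of all tested genes called. The source of the change in Chat was not tested.

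S100b, a calcium-binding protein of glia (chromosome 10, plus strand, 76089687 to 76096993), was the member that fell with FOLFOX. It was at 1.5, 2.25 and 3.02 CPM (lowest, median and highest) in NC, at 2.14, 1.04, 1.41, 3.74 and 5.15 CPM in CAC and at 1.43, 1.22, 1.09, 0.875 and 1.03 CPM in CAC_F. CAC_F lay at the low end of CAC, which 2 high libraries spread out, and 2 CAC_F libraries were below every CAC library. The log2 fold change was -1.25 ± 0.46 (1.13 ± 0.21 against 2.70 ± 1.72 CPM, SD, n = 5 each; adjusted p = 0.0437, edgeR). The call was lost in 7 of 10 fits that left out 1 library, those without CAC replicate 4 or 5 or any CAC_F library, where the change was -1.46 to -0.88 over all 10. With the mean of the smooth muscle genes as a covariate the direction turned, to 0.34 (adjusted p = 0.566, edgeR). In CAC_FP S100b was at 1.85, 1.06, 0.316, 1.24 and 1.89 CPM and in CAC_FPL at 0.327, 1.48 and 2.07 CPM, with no call at either step.

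Smooth muscle genes were lower in the same libraries. In CAC_F against CAC 12 of 13 were called lower (92.3%), beside 13.6% of all tested genes, with a median of -1.57. Their summed level was 2140 to 3640 CPM in CAC_F and 4140 to 18500 CPM in CAC. Actg2, the enteric actin, fell by 2.35 ± 0.44 on the log2 scale, from 1010 ± 768 to 199 ± 68.0 CPM (adjusted p = 0.000474, edgeR). Des was at -1.89 ± 0.39, Acta2 at -1.36 ± 0.36 and Myh11 at -1.41 ± 0.44, each called. From library to library S100b followed Myh11: after group means were removed r was 0.82 (permutation p = 8e-05, adjusted p = 0.00036 over 9 relations), Spearman's coefficient was 0.77 and r without the 2 farthest libraries 0.76 (n = 27). For Elavl4 r was 0.64 (permutation p = 0.00109, adjusted p = 0.00245), for Sox10 0.63 (0.0028 and 0.00504), for Vip 0.64 (0.00048 and 0.00144), for Nos1 0.60 (0.00341 and 0.00511) and for Uchl1 0.59 (0.00421 and 0.00541). For Ret r was 0.40 (permutation p = 0.0456, adjusted p = 0.0513) and for Tac1 -0.14 (0.494 and 0.494). Spearman's coefficient for these 7 was 0.67, 0.59, 0.75, 0.46, 0.59, 0.46 and -0.08 in the same order, and r without the 2 farthest libraries was 0.66, 0.56, 0.66, 0.61, 0.58, 0.52 and -0.10. Such correlations were not confined to Myh11. With the enteroendocrine gene Chga in place of Myh11, r was 0.7 for Elavl4, 0.72 for Uchl1 and 0.69 for S100b. It was 0.5 for Vip, 0.4 for Nos1, 0.31 for Tac1 and for Sox10, and 0.12 for Ret. The values for Chga were not tested, and were not computed without their farthest libraries.

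**Figure D3:**
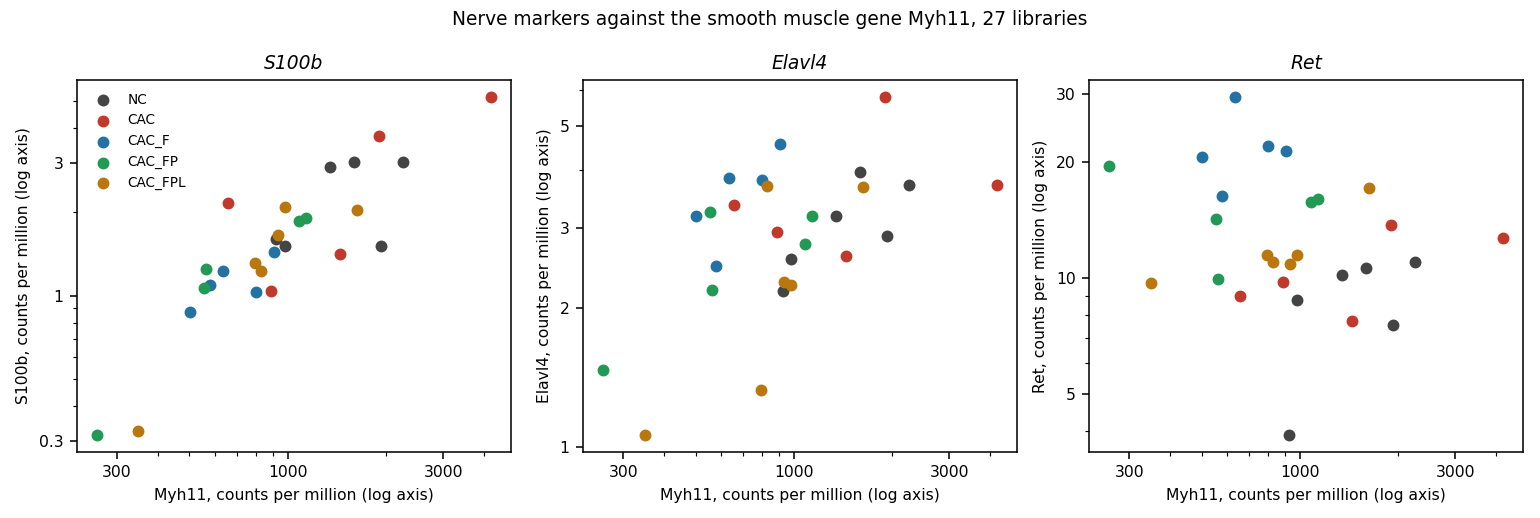
S100b, Elavl4 and Ret in CPM against the smooth muscle gene Myh11, on log axes, with 1 point per library coloured by group (27 libraries). S100b tends to climb with Myh11, with exceptions inside groups. The 5 CAC_F points of Ret lie above the other groups at Myh11 levels of 502 to 910.

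Sox10, the transcription factor of neural crest and glia (chromosome 15, minus strand, 79039108 to 79049440), was not called in any comparison. It was at 2.64, 3.57 and 6.05 CPM (lowest, median and highest) in NC, at 2.82, 3.10, 1.56, 6.33 and 6.62 CPM in CAC and at 1.60, 3.16, 2.20, 2.58 and 4.16 CPM in CAC_F. It was at 3.08, 3.21, 1.93, 2.70 and 4.59 CPM in CAC_FP and at 1.13, 3.01 and 6.28 CPM in CAC_FPL. All groups overlapped, and the high CAC values were in replicates 4 and 5, as for S100b. The change in CAC_F against CAC was -0.57 ± 0.39 (adjusted p = 0.295, edgeR), with a 95% interval of -1.34 to 0.19.

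The glial list as a whole was mixed. In CAC_F against CAC 1 of 16 was higher and 1 lower (12.5% called, beside 27.5% of all tested genes), with a median of -0.40. With the smooth muscle mean as a covariate the median turned to 0.58, with 4 higher and 0 lower. In the fit without it Gpm6b, a membrane proteolipid also found outside glia, rose by 1.26 ± 0.38, from 20.7 ± 5.71 to 49.6 ± 32.3 CPM (adjusted p = 0.016, edgeR), and S100b was the lower one. Gfap, the filament of reactive glia, was at 46.4, 23.1, 4.10, 13.0 and 21.3 CPM in CAC_F and at 9.60, 6.12, 4.94, 12.7 and 13.0 CPM in CAC, a change of 1.22 ± 0.58 (adjusted p = 0.122, edgeR). Against NC, at 3.50 to 9.46 CPM, Gfap was higher by 1.78 ± 0.56 (adjusted p = 0.0148, edgeR), although CAC_F replicate 3 lay inside the NC range. Ngfr, the low-affinity neurotrophin receptor, rose by 0.85 ± 0.24 against NC (adjusted p = 0.00816, edgeR). Of the 16 glial genes 3 (18.8%) were called higher and 0 lower in CAC_F against NC, where 34.3% of tested genes were called. Their median was 0.15, with 8 positive and 8 negative. The negative ones included S100b at -1 ± 0.44 and Sox10 at -0.57 ± 0.38, neither called.

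**Figure D4:**
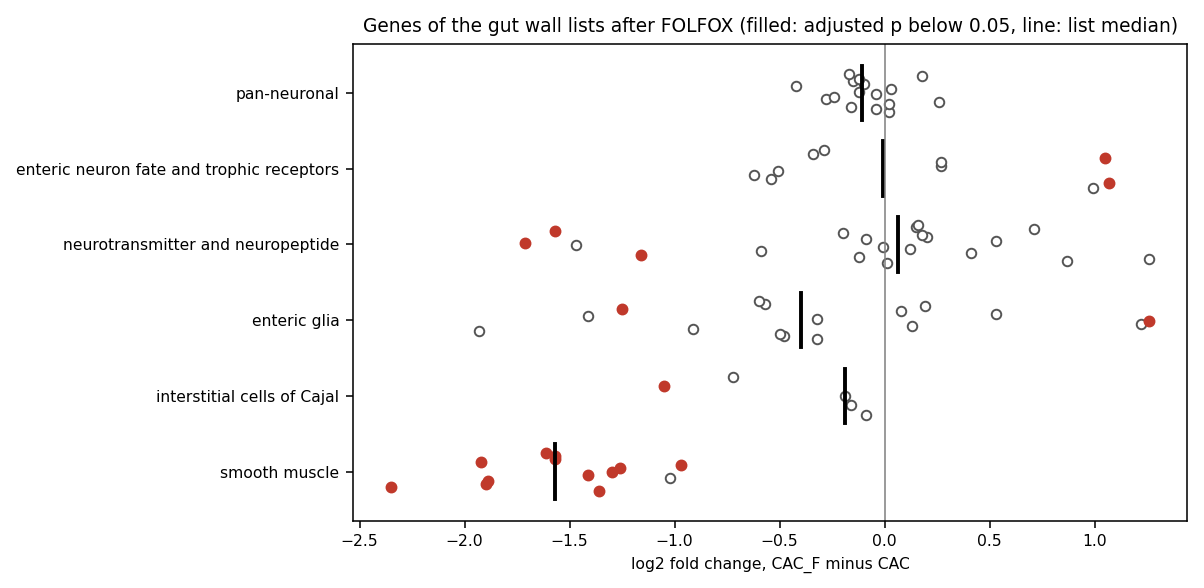
Log2 fold change in CAC_F minus CAC of the genes of 6 lists of the gut wall, with 1 point per tested gene (filled red: adjusted p below 0.05 by edgeR) and a line at each list's median. The pan-neuronal genes lie near 0 with a median of -0.11 and none called, while 12 of 13 smooth muscle genes are called lower around a median of -1.57.

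Elavl4 and Sox10 were also read against the muscle actin Actg2 in the same library. The ratio of Elavl4 to Actg2 in CPM was 0.00164 to 0.00967 in the 5 CAC libraries and 0.0137 to 0.0259 in the 5 CAC_F libraries, with no overlap. The log2 ratio differed by 2.08 (exact permutation p = 0.00794, the smallest possible; adjusted p = 0.0794 over the 40 ratio tests). In CAC_FPL against CAC_FP that ratio was lower by 1.39 (exact permutation p = 0.00866) and the ratio of Sox10 to Actg2 by 1.31 (p = 0.00216, the smallest possible, without overlap), both with an adjusted p of 0.0794. All 13 smooth muscle genes were positive in CAC_FPL against CAC_FP, with a median of 0.63 and none called. With the smooth muscle mean as a covariate in CAC_F against CAC, Ret was at 1.44 (adjusted p = 0.00147) and Nos1 at 1.06 (adjusted p = 0.0332) and Vip at 1.32 (adjusted p = 0.0447, edgeR) also passed. Elavl4, Uchl1 and Sox10 then turned positive, at 0.58, 0.51 and 0.55, without a call. The covariate did not overlap between CAC_F and CAC, so these values cannot separate muscle content from the group.

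Among receptors and effectors of the transmitters 1 was higher and 2 were lower of 11 tested in CAC_F against CAC. That share of 27.3% was near the 27.5% of all tested genes called. Tacr1, the receptor of substance P, was at 14.1, 30.4, 12.4, 14.8 and 26.3 CPM in CAC_F and at 3.46, 10.1, 4.59, 4.64 and 9.73 CPM in CAC, without overlap. It rose by 1.59 ± 0.45 (adjusted p = 0.00976, edgeR). Chrm3, the muscarinic receptor of muscle and epithelium, fell by 1.82 ± 0.51 on the log2 scale (adjusted p = 0.00916), and Gucy1a1, a subunit of the nitric oxide receptor, by 1.12 ± 0.36 (adjusted p = 0.0221, edgeR). Vipr1 and Vipr2, the receptors of Vip, were at -0.37 ± 0.24 and 0.11 ± 0.36, not called. Oprm1, the mu opioid receptor on which loperamide acts, held 0 to 16 counts in a library, at most 0.223 CPM, and was under the filter. A count of 0, as in all CAC_F libraries, allows up to 3 counts, or 0.0358 to 0.055 CPM, by counting error alone. Of 10 trophic ligands Artn and Nrg1 rose and none fell (20% called, beside 27.5% of all tested genes). Nrg1, a neuregulin that acts through Erbb3, on glia among other cells, was at 60.8, 132, 36.3, 19.6 and 50.8 CPM in CAC_F. In CAC it was at 6.76, 24.4, 9.07, 6.62 and 10.8 CPM. It rose by 2.38 ± 0.48 (adjusted p = 0.000869, edgeR), with CAC_F replicate 4 inside the CAC range. In CAC_FPL it was lower than in CAC_F by -1.64 ± 0.44 (adjusted p = 0.0299, edgeR). Erbb3 was at 132 to 308 CPM in CAC and at 83.7 to 234 CPM in CAC_F, far above the glial gene Sox10. Which cells held Erbb3 was not tested.

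The remaining comparisons share libraries with those above. In CAC_FP against NC Ret was higher by 0.80 ± 0.22 (adjusted p = 0.0138, edgeR), 1 of 8 members, where 18.1% of tested genes were called, 10.7% as higher and 7.41% as lower, and 12.7% did not overlap. Without CAC_FP replicate 3 its adjusted p was 0.0502 (edgeR). In CAC_FPL against NC none of the 8 was called, where 4.86% of tested genes were (3.26% higher, 1.6% lower, 2.79% without overlap), and Ret was at 0.47 ± 0.21 (unadjusted p = 0.037, adjusted p = 0.205, edgeR), the only member below 0.05 unadjusted. In CAC_FP against CAC none was called, where 11.8% of tested genes were, 6.58% as higher and 5.22% as lower, and 7.96% did not overlap. In CAC_FPL against CAC none was called either, where 0.607% of tested genes were, 0.435% as higher and 0.171% as lower, and 1.42% did not overlap. At an unadjusted p below 0.05 there were 2 members in each: Ret and S100b in the former, Elavl4 and S100b in the latter.

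Over the 27 libraries, the named genes most like each member in log2 CPM were found among 22753 genes. For Elavl4 they were Nap1l5 (r = 0.93), Uchl1 (0.93) and Scg3 (0.91), and for Uchl1 Eef1a2 (0.95), Ndrg4 (0.94) and Nap1l5 (0.93). For S100b they were Ckm (0.94), Ctxn3 (0.94) and Pdlim3 (0.93), of which Ckm is the muscle creatine kinase. Sox10 was most like Hey2 (0.84), Foxf2 (0.82) and Plxnb3 (0.80). Ret was most like Syt16, Pi15 and Cibar1 (0.86 each), Nos1 like Dnah7b (0.88), Atp1b2 (0.87) and Caprin2 (0.86), and Vip like Scgn (0.81), Tmem178b (0.79) and Gal (0.76). For Tac1 the closest, Bmyc, reached 0.76. These values describe the libraries, which share depth and tissue makeup.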

How the data were processed

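Members and gene lists were chosen with earlier results of these data known. Per the labels' protocols, RNA was extracted with Trizol and stranded libraries were made with dUTP. Cutadapt 1.9, FastQC and HISAT2 appear in the submitters' processing notes, without their roles. No source used here names the genome build, the counting tool or its strand setting. The deposited table gives raw counts per gene and, beside them, FPKM (fragments scaled to gene length and library size), both made by the authors.

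Counts were filtered with filterByExpr (minimum count 10), which kept 22753 of 39971 genes, scaled by TMM and fitted in 1 quasi-likelihood model over all 27 libraries (edgeR 4.0.16, R 4.3.3), with groups as coefficients and Benjamini-Hochberg adjustment. All tests were two-sided. The SE was taken from the F statistic as |log2 fold change|/√F. Log2 CPM used a prior count of 2. The count filter was chosen because Elavl4 reaches an FPKM of 1 in 0 of 27 libraries. Ratios between genes were tested by exact permutation and relations by 100000 permutations within groups. The test was checked on simulated counts.

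The rule for named genes took the 8 members in full, from each other list up to 4 called genes with the smallest adjusted p or, with none called, up to 2 with the smallest unadjusted p, the 3 genes most like each member, and Acta2, Actg2, Des, Myh11, Chga and Hoxa13. Not all of these are printed. Gdnf, Gfra1, Gfra2, Chat, Tph1, Vipr1, Vipr2, Oprm1, Ano1, Erbb3 and Hoxb13, and Gfap in CAC_F against CAC, were chosen after their values were seen. Alternatives were no filter, an FPKM filter, other scalings, DESeq2 1.42.0, voom and limma 3.58.1 on log2(FPKM + 1) and log2(FPKM + 0.1), a replicate block, a smooth muscle covariate, only the groups compared and leaving out libraries.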

Additional observations from a re-analysis of the deposited data

Results flagged for a closer look

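Ret in CAC_FPL replicate 4 was at 17.1 CPM, where the other 5 libraries of that group ran from 9.69 to 11.5 CPM, and it lay apart from them by Dixon's test at the 95% level. The same library had the highest levels of its group for Ednrb (77.6 CPM), Tacr1 (30.9 CPM), Gfap (37.3 CPM), Nrg1 (42.3 CPM) and Myh11 (1630 CPM). Tac1 in NC replicate 2 was at 15.4 CPM against 6.33 to 8.96 CPM in the other 5 NC libraries, flagged by the same test. It was also the NC library highest in Uchl1 (17.6 CPM) and Vip (32.0 CPM). In all, 40 sets of a member and a group were examined, and chance alone flags about 1 in 20.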

How the results depend on the processing

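Ret in CAC_F against CAC was called under every alternative run, at 0.75 to 1.44. The count of called members there fell from 2 to 1 with no filter, on log2(FPKM + 1), on log2(FPKM + 0.1), with the replicate block and with only the groups compared, and was 1 to 2 with libraries left out in turn, each time through loss of S100b (adjusted p = 0.0773, 0.0668, 0.123, 0.0733 and 0.0524). With the smooth muscle covariate, which did not overlap between these groups, the count rose to 3, Ret, Nos1 and Vip. In CAC_FP against CAC_F it rose from 0 to 1 (Tac1) with DESeq2 and was 0 to 1 with libraries left out. Numbers shared between groups did not pair the libraries (r of -0.32 to 0.22), and the block changed no other member's call in these comparisons. Ret in CAC_FPL against CAC_F lost its call with the block (adjusted p = 0.0537), with only the groups compared (0.125) and without CAC replicate 2 and CAC_FPL replicate 3 (0.0505). Tac1 in CAC_F against NC lost it with no filter (0.0779), median-ratio (0.0524) and upper-quartile factors (0.0528), the block (0.133), the covariate (0.333) and only the groups compared (0.0574). Genes called in CAC against NC numbered 1, but 48 with DESeq2, 6 with voom and 0 with the block, on log2(FPKM + 0.1) or with only these groups. In CAC_FP against CAC_F they numbered 0, but 280 with DESeq2, 9 with voom and 3 on log2(FPKM + 1), and in CAC_FPL against CAC_FP 0, but 23 with DESeq2. Called genes were 14.2% of those tested with no filter in CAC_F against CAC, where more genes were tested. The FPKM filter drops Elavl4.

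Several values changed sign, and the cause was not tested. All were uncalled but S100b in CAC_F against CAC, called at -1.25. In CAC against NC Sox10 was at -0.022 with no filter, -0.016 with median-ratio factors and with DESeq2, -0.049 on log2(FPKM + 0.1), -0.18 with the block and -0.13 with the smooth muscle covariate. Under the block Uchl1 was at -0.041 and Vip at -0.027. In CAC_F against CAC Vip was at -0.001 with voom, and Elavl4 at 0.015 and 0.044 on log2(FPKM + 1) and log2(FPKM + 0.1). The smooth muscle covariate gave 0.58 for Elavl4, 0.51 for Uchl1, 0.34 for S100b and 0.55 for Sox10. In CAC_FP against CAC_F S100b was at -0.0098 on log2(FPKM + 0.1). In CAC_FPL against CAC_FP Sox10 was at -0.15 with voom, -0.033 and -0.11 on log2(FPKM + 1) and log2(FPKM + 0.1), -0.0069 with the block and -0.56 with the covariate, Uchl1 at 0.083 with the block and S100b at -0.43 with the covariate. Without CAC replicate 2 and CAC_FPL replicate 3, Elavl4 was at 0.037, Uchl1 at 0.16 and Vip at 0.044 there. With libraries left out in turn, in CAC against NC Uchl1 ran from -0.14 to 0.29, Vip from -0.1 to 0.42, S100b from -0.12 to 0.46 and Sox10 from -0.24 to 0.22. In CAC_F against CAC Elavl4 ran from -0.14 to 0.18, Uchl1 from -0.31 to 0.066 and Vip from -0.18 to 0.48, and in CAC_FP against CAC_F S100b from -0.014 to 0.42 and Sox10 from -0.006 to 0.38. In CAC_FPL against CAC_FP Elavl4 ran from -0.28 to 0.039, Uchl1 from -0.2 to 0.16, Vip from -0.37 to 0.045, S100b from -0.074 to 0.38 and Sox10 from -0.31 to 0.2. S100b had as few as 20 counts in a library.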

Other observations

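The endocrine cells of the epithelium share secretory genes with neurons. In CAC_F against NC 6 of 12 enteroendocrine genes were called higher and none lower, with a median log2 fold change of 1.06, beside 34.3% of all tested genes called. Of 16 pan-neuronal genes 1 was higher, Ncam1 at 0.77 ± 0.24 (adjusted p = 0.0142, edgeR). The difference between the lists was not tested. In CAC_F against CAC 2 of 12 enteroendocrine genes were called (16.7%), beside 27.5% of all tested genes. The peptide YY gene Pyy was at 1.45 ± 0.43 (adjusted p = 0.0143) and the secretin gene Sct at 1.5 ± 0.48 (adjusted p = 0.0213, edgeR), both without overlap between the groups. CAC_FP replicate 3 had Chga at 20.8 CPM, where the other CAC_FP libraries had 88.3 to 170 CPM. It was also the lowest of that group in Elavl4, Uchl1, Nos1, Vip, S100b and Sox10. In Ret, at 19.5 CPM, it was the highest of that group.

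Interstitial cells of Cajal, the pacemaker cells between muscle and nerve, gave 1 of 5 genes lower in CAC_F against CAC. That was 20%, beside 27.5% of all tested genes called, 13.6% as lower. Kit, their receptor tyrosine kinase, fell by 1.05 ± 0.35 on the log2 scale (adjusted p = 0.0286, edgeR), from 157 ± 55.7 to 76.0 ± 31.6 CPM. Ano1, their chloride channel, was at -0.09 ± 0.37 (adjusted p = 0.888, edgeR). Kit is also expressed by mast cells and by some epithelial cells.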
